A study of Mus musculus with 12 samples.

Results

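The genes described here serve membrane repair and caveolae in skeletal muscle: dysferlin (Dysf), the tripartite motif protein Trim72, the caveolins Cav1, Cav2 and Cav3, the annexins Anxa1 and Anxa2, and the protease calpain 3 (Capn3). Members were taken by gene name among the array's non-control probes. Of the 8 genes, 7 were found among 27597 gene names, with 11 probes among 41174, and all 11 were well above background on the 3 arrays of at least 1 group, as were 28607 probes in all. Trim72 was not analysed here.

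RNA was measured on 12 one-colour Agilent mouse arrays, 3 per group, in cultured cells and in whole muscles. C2C12, an established line of mouse myoblasts, was sampled as proliferating cells at about 50% confluence and as myotubes 96 h after the start of differentiation. The myotubes had been separated from mononucleated cells by mild trypsin treatment and replating, so the group holds mostly, and not only, fused cells. Adult tissue was represented by 2 muscles of male CD1 mice of 3 months: the extensor digitorum longus (EDL), which twitches fast and is glycolytic, and the soleus, which is slow and oxidative; muscles of both hind limbs of 1 mouse were pooled per sample. No group carried a transgene, a deletion or a drug. Cultures of 1 cell line are not known to be independent of each other beyond their labels, so p-values measure the spread between these samples, which in the cultures may be technical.

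Levels are given as normalized signal on the log2 scale, that is, the log2 processed signal minus the 75th percentile of the array plus a constant of 9.65, as mean ± SD of 3 arrays. A level is compared only between groups and never between probes. A difference was called where limma's adjusted p (Benjamini-Hochberg over 28607 probes) was under 0.05 and the log2 difference was at least 1, and "rose", "fell", "higher" and "lower" refer to called differences unless values are given. Each of the 3 slides carried 1 array of every group, so replicate number and slide are the same, and position on the slide and group cannot be told apart. The 75th percentile of raw signal was 1018 to 1556 in the 2 culture groups and 457 to 614 in the 2 muscles, and 57.4% to 72.8% of probes were well above background per array. The lowest correlation between replicate arrays across probes was 0.981. The groups were checked by marker genes: the summed signal of 8 striated muscle fibre genes was 15.11 to 15.37 in myoblasts, 19.65 to 19.72 in myotubes, 20.82 to 20.99 in EDL and 20.85 to 20.9 in soleus. A sum adds linear signal, so the brightest genes of a list weigh most. Of the 8, 4 were higher and 2 lower in EDL than in myotubes, and 5 higher and 2 lower in soleus. The lower 2 were Myh3 and Myog. The 5 genes of dividing cells fell in myotubes and again in both muscles. The muscles were whole organs, and all 10 endothelium genes measured were higher in EDL and in soleus than in myotubes. In such bulk samples fewer cells of a type and less RNA per cell cannot be told apart.

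The membrane of a muscle fibre is torn during contraction and is resealed within seconds by calcium-triggered fusion of vesicles and by assembly of a repair cap. Dysferlin is a calcium-binding membrane protein of that process, annexins are calcium-dependent phospholipid-binding proteins that gather at the wound, and calpain 3 is the muscle-specific calpain. Caveolae are small flask-shaped pits of the plasma membrane: Cav3 is the caveolin of striated muscle, Cav1 forms caveolae in endothelium, adipocytes and fibroblasts, and Cav2 assembles with Cav1. Mutations of DYSF, CAPN3 or CAV3 cause inherited muscle disease in humans.

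The bases before the start sites are shown for Cav3 and Capn3, which rose as myoblasts became myotubes. They are also shown for Cav1 and Cav2, which fell and were high again in muscle, and for Anxa2, which fell at each step. The windows of Dysf, which also rose, and of Anxa1, which also fell at each step, are not printed. All 8 members matched the RefSeq promoter table (GRCm38.p6), with 11 start sites, because Dysf, Cav1 and Capn3 have 2 each; for Cav1 and Capn3 the first start is printed. Each line gives the 250 bases before the start, 5′ to 3′ on the gene's strand, and capitals mark a match on either strand to the motif CAGCTG, to TGANTCA, to TATAAA, to GGGCGG or to the MEF2 consensus.
Cav3, chr6:112459255-112459504, plus strand: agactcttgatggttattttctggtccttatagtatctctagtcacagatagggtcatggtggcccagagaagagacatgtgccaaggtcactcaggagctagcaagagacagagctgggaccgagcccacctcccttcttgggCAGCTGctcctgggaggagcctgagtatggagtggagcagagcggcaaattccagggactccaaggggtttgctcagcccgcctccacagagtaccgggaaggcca
Capn3, chr2:120463343-120463592, plus strand: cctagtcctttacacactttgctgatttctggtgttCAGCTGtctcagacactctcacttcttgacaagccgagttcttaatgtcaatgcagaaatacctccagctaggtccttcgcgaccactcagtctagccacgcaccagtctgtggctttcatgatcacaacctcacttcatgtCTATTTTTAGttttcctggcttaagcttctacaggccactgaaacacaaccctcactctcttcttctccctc
Cav1, chr6:17306085-17306334, plus strand: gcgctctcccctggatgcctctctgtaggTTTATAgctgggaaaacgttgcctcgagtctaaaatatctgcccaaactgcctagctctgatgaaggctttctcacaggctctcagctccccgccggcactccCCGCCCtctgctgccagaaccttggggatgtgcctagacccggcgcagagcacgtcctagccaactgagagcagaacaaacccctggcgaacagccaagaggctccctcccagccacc
Cav2, chr6:17280935-17281184, plus strand: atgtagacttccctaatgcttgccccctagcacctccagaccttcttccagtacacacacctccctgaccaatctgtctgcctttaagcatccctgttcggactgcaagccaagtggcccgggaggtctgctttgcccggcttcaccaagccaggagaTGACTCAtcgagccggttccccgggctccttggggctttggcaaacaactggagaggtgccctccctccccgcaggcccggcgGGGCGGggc
Anxa2, chr9:69453433-69453682, plus strand: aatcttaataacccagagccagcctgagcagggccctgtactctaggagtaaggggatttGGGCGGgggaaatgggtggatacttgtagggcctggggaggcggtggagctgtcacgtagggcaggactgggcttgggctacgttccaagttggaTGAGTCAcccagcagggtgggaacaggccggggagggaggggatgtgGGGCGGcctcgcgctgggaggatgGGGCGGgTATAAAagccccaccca

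The Cav3 window held CAGCTG, an E-box of the kind bound by myogenic factors, 106 bases before the start, and the Capn3 window held CAGCTG at 214 bases and a MEF2 consensus match at 72 bases. The Cav2 and Anxa2 windows each held TGANTCA, the form recognised by AP-1, at 92 and 95 bases. GGGCGG lay once in the Cav2 window, at 9 bases, and at 3 places in the Anxa2 window. The Anxa2 window also held TATAAA at 17 bases. In the Cav1 window GGGCGG and TATAAA each matched once, both on the opposite strand. Over all 32851 windows of the same length, 13% held CAGCTG, 6.75% TGANTCA, 12.4% TATAAA, 32.7% GGGCGG and 2.92% the MEF2 consensus. Of the windows not printed, Anxa1 held TATAAA at 32 bases, the second Dysf start held GGGCGG at 3 places, and the windows of the first Dysf start, of the second Cav1 and Capn3 starts and of Trim72 held none of these. The CArG box was searched too and was found in 1.47% of all windows and in none of the members'. These matches describe letters in a window and are not measured sites.

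**Figure D1:**
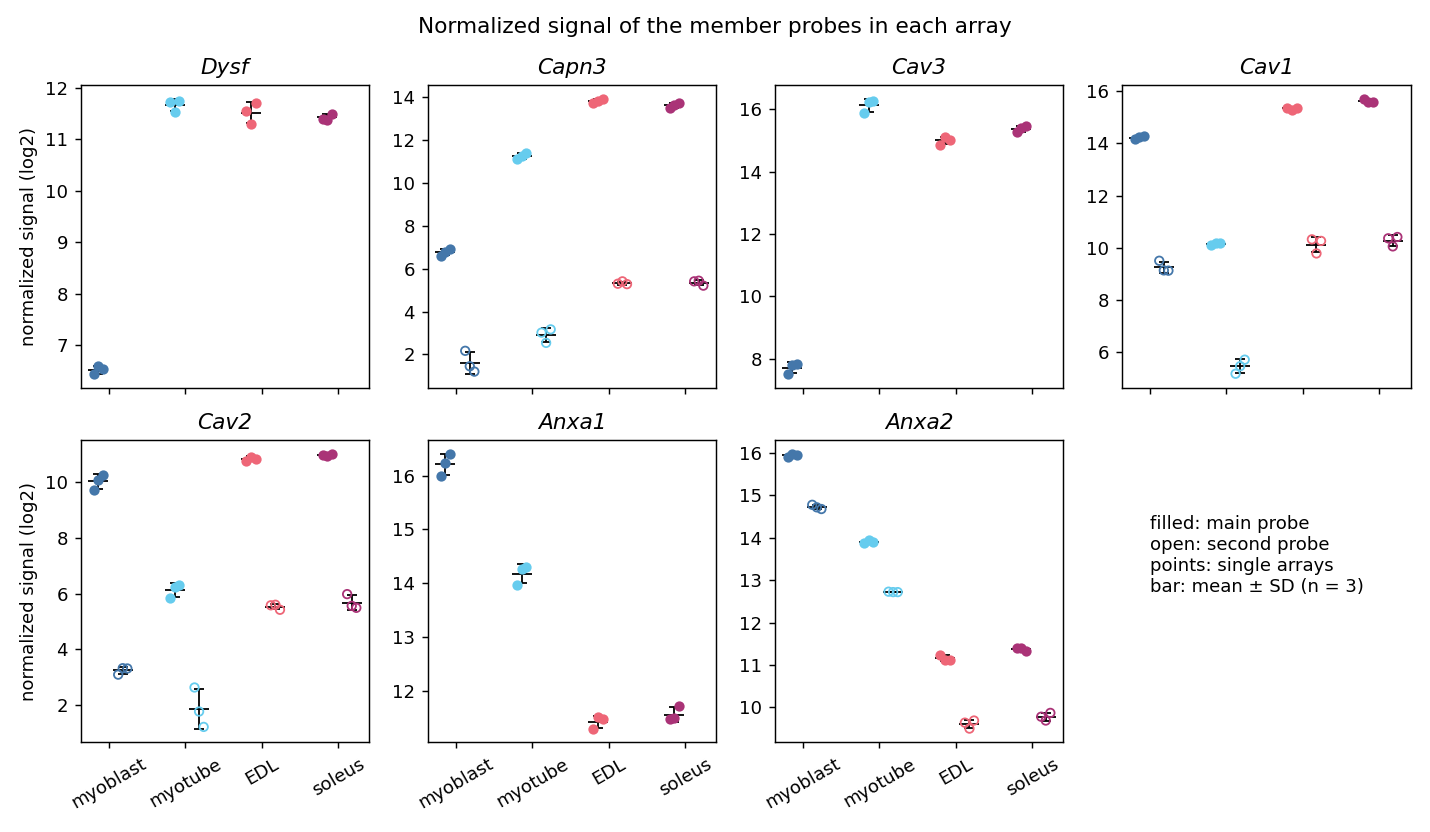
Normalized signal (log2, vertical axis) of each array in the 4 groups, 1 panel per gene; filled points are the probe with the highest mean, open points the second probe, and bars the mean ± SD of 3 arrays. Dysf, Capn3 and Cav3 are lowest in myoblasts, Cav1 and Cav2 are lowest in myotubes, and Anxa1 and Anxa2 step down from myoblasts to myotubes to muscle.

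The first comparison asks how these genes change as C2C12 myoblasts differentiate into myotubes. All 11 member probes were called, 4 higher and 7 lower, where 35.2% of all tested probes were called, 18.4% higher and 16.8% lower. The second probes of Capn3 and Cav2 are among them, were kept only for their signal in muscle and were not well above background on all arrays of either culture group. Leaving out such probes, 9 of 9 member probes were called, 3 higher and 6 lower, where 36.1% of 26974 probes were. By gene, Dysf, Cav3 and Capn3 rose and Cav1, Cav2, Anxa1 and Anxa2 fell. The median log2 difference was -2.01 over the member probes and 0.02 over all probes.

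Dysferlin was measured by 1 probe (A_52_P233801), designed over chr6:84171525-84172783 of build mm8 on the plus strand, a span of 1259 bases that is longer than the oligonucleotide. Its signal was 6.45, 6.6 and 6.55 in the 3 myoblast arrays and 11.73, 11.54 and 11.75 in the 3 myotube arrays. It was 11.56, 11.29 and 11.7 in EDL and 11.4, 11.38 and 11.5 in soleus. Myoblasts were far below the other 3 groups, which lay close to each other. Dysf was 35.3-fold higher in myotubes than in myoblasts (log2 difference 5.14, SE 0.11, adjusted p = 1.3e-10), and 4.93 to 5.28 higher on the log2 scale within the single slides.

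Dysf in adult muscle was not called different from myotubes. The log2 difference was -0.15 in EDL (95% confidence interval -0.41 to 0.1, adjusted p = 0.25) and -0.25 in soleus (-0.5 to 0.01, adjusted p = 0.076), and the soleus and myotube arrays did not overlap. With the arrays scaled to RNA spiked in at labelling in place of their 75th percentile, both differences were called, at -1.16 and -1.46, so the call depends on the scaling. Spike-in scaling moved every probe by -1.01 in EDL and -1.21 in soleus relative to myotubes, -0.35 in myotubes relative to myoblasts, and -1.36 and -1.56 in EDL and soleus relative to myoblasts. EDL was 31.7-fold and soleus 29.7-fold above myoblasts, and the order of the means was myotube, EDL, soleus, myoblast, with only the last step called.

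Calpain 3, the protease that binds titin and whose loss causes limb-girdle muscular dystrophy, rose at both steps. Its main probe (A_51_P423859, chr2:120195541-120195918, mm8) read 6.61, 6.8 and 6.93 in myoblasts, 11.13, 11.25 and 11.39 in myotubes, 13.72, 13.84 and 13.92 in EDL and 13.5, 13.65 and 13.74 in soleus. The culture groups did not overlap with each other or with muscle, while EDL and soleus overlapped. Myotubes were 22.2-fold above myoblasts (log2 difference 4.47, SE 0.11, adjusted p = 3.1e-10). EDL was 5.95-fold above myotubes (2.57, SE 0.11, adjusted p = 1e-08) and soleus 5.2-fold (2.38, SE 0.11, adjusted p = 2e-08). Against myoblasts the folds were 132 in EDL and 115 in soleus.

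A second probe named Capn3 (A_52_P300971, chr2:120198784-120198843, mm8) rests on a cDNA whose array description names zinc finger protein 106, a neighbouring gene, so what it measures is uncertain. It was well above background on none of the 6 culture arrays and on all 6 muscle arrays. EDL read 5.33 ± 0.07 and soleus 5.35 ± 0.12, at least 3.64-fold and at least 3.69-fold above myotubes, where each array's bound is the higher of the probe's own signal and the lowest signal among probes well above background. With normexp background correction the log2 differences were 0.97 in EDL (adjusted p = 0.55) and 1.67 in soleus (adjusted p = 0.2), below these bounds and not called. Its myotube-minus-myoblast difference of 1.3 compares values below background and gives no fold.

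The caveolins split. Cav3, the striated muscle caveolin, rose while Cav1 and Cav2 fell as myoblasts became myotubes. The Cav3 probe (A_51_P255304, chr6:112438522-112438581, mm8) read 7.52, 7.8 and 7.83 in myoblasts and 15.89, 16.23 and 16.26 in myotubes. It read 14.87, 15.1 and 15.03 in EDL and 15.26, 15.39 and 15.46 in soleus. The 4 groups did not overlap, with myotubes highest, then soleus, EDL and myoblasts. Myotubes were 340-fold above myoblasts (log2 difference 8.41, SE 0.13, adjusted p = 1.4e-11), the largest difference among the member probes in this comparison.

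Cav3 was lower in EDL than in myotubes by 2.19-fold (log2 difference -1.13, SE 0.13, adjusted p = 1.9e-05). In soleus the difference from myotubes was -0.76 (SE 0.13, adjusted p = 3.9e-04), which is past the p threshold and under the size threshold; it was called with quantile normalization at -1.25, with spike-in scaling at -1.97 and in the authors' deposited table at -1.13. The EDL difference was -1.2 with normexp background correction, with an adjusted p of 0.06. Both muscles remained far above myoblasts, EDL by 155-fold and soleus by 201-fold.

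Cav1, the main caveolin of non-muscle cells, was lowest in myotubes. Its main probe (A_52_P306845, chr6:17291169-17291228, mm8) read 14.16, 14.23 and 14.28 in myoblasts and 10.12, 10.18 and 10.18 in myotubes. It read 15.36, 15.29 and 15.37 in EDL and 15.71, 15.58 and 15.6 in soleus. No 2 groups overlapped. Myotubes were 16.7-fold below myoblasts (log2 difference -4.06, SE 0.07, adjusted p = 3.4e-11), EDL was 36.3-fold above myotubes (5.18, SE 0.07, adjusted p = 7.1e-12), and soleus was 44.3-fold above myotubes (5.47, SE 0.07, adjusted p = 6.2e-12).

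The second Cav1 probe (A_51_P107302, chr6:17289197-17289256, mm8) gave the same directions. Its means were 9.25 ± 0.22 in myoblasts, 5.45 ± 0.27 in myotubes, 10.12 ± 0.29 in EDL and 10.27 ± 0.2 in soleus. The log2 differences were -3.8 for myotubes against myoblasts, 4.68 for EDL against myotubes and 4.83 for soleus against myotubes, each called. Whether Cav1 in muscle exceeded myoblasts was less firm. The main probe was called at 1.12 in EDL and 1.41 in soleus, but with spike-in scaling it read -0.24 and -0.15 and lost the call; the EDL difference was 0.73 with quantile normalization and 0.79 in the authors' deposited table, under the size threshold. The second probe was 0.88 in EDL, not called, and 1.03 in soleus, called. Without EDL replicate 2 its EDL difference was called at 1.04, and without myoblast replicate 2 or 3 or soleus replicate 1 or 3 its soleus difference was 0.96 to 0.98 and not called.

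Cav2, which needs Cav1 to reach the cell surface, followed the same order of groups. Its main probe (A_51_P279552, chr6:17238393-17238452, mm8), the mean of 10 spots, read 9.7, 10.07 and 10.25 in myoblasts, 5.85, 6.23 and 6.31 in myotubes, 10.73, 10.9 and 10.81 in EDL and 10.95, 10.93 and 11.01 in soleus. Myotubes were 14.7-fold below myoblasts (log2 difference -3.87, SE 0.16, adjusted p = 8.5e-09). EDL was 25.7-fold (4.68, SE 0.16, adjusted p = 1.3e-09) and soleus 28.5-fold (4.83, SE 0.16, adjusted p = 1.1e-09) above myotubes. Against myoblasts the differences were 0.81 in EDL and 0.96 in soleus, both under the size threshold with adjusted p of 7.2e-04 and 2.2e-04; the soleus difference was called at 1.02 with quantile normalization, at 1.05 in the authors' deposited table and at 1.08 without myoblast replicate 3.

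The second Cav2 probe (A_52_P55846, chr6:17232625-17232684, mm8), which is based on another transcript record of the gene, was dim. It was well above background on 1 of 3 myoblast arrays and on none of the 3 myotube arrays, and on all 6 muscle arrays. Its signal was 5.53 ± 0.1 in EDL and 5.68 ± 0.27 in soleus, at least 4.18-fold and at least 4.62-fold above myotubes. With normexp background correction the log2 differences were 1.12 in EDL (adjusted p = 0.47) and 1.84 in soleus (adjusted p = 0.17), not called and smaller than these bounds. It was called lower in myotubes than in myoblasts at -1.37, a difference that was not called with normexp background correction (-1.44, adjusted p = 0.32) or in the authors' deposited table (-0.96, adjusted p = 0.053).

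Markers of other cell types moved with Cav1 and Cav2 between myotubes and muscle. The summed signal of 10 endothelium genes was 10.19 to 10.4 in myoblasts, 9.17 to 9.75 in myotubes, 15.63 to 15.69 in EDL and 15.83 to 15.85 in soleus, and 4 of the 10 (Cdh5, Emcn, Pecam1 and Tie1) were well above background on no culture array. The sum of 5 adipocyte genes was 6.84 to 7.22 in myoblasts, 4.91 to 7.64 in myotubes, 16.28 to 16.37 in EDL and 16.78 to 16.99 in soleus, and Adipoq, Cfd and Plin1 were well above background on no culture array. Fabp4 alone had a mean of 16.28 in EDL and 16.8 in soleus, so the muscle values of this sum are mostly 1 gene. Fibroblast and connective tissue genes summed to 16.57 to 16.96, 14.22 to 14.56, 17.64 to 17.98 and 17.32 to 17.46 in the same order. Schwann cell genes summed to 13.55 to 13.68, 11.7 to 11.87, 14.06 to 14.08 and 15.11 to 15.18, so this sum and the fibroblast sum, like Cav1 and Cav2, were lowest in myotubes. Pmp22 alone had a mean of 13.58 in myoblasts and 11.68 in myotubes, near the whole Schwann cell sum. Smooth muscle and pericyte genes summed to 16.32 to 16.4, 16.61 to 16.77, 18.28 to 18.47 and 18.05 to 18.17, and macrophage and leukocyte genes to 7.83 to 8.05, 8.35 to 8.62, 13.81 to 13.86 and 13.91 to 13.97. Acta2 alone had a mean of 16.53 in myotubes and 18.14 in EDL, near the smooth muscle and pericyte sum. All 10 endothelium, all 5 adipocyte, all 9 fibroblast and all 6 Schwann cell genes were higher in EDL than in myotubes, as were 5 of 7 smooth muscle and pericyte and 8 of 10 macrophage and leukocyte genes. From myoblasts to myotubes 1 endothelium gene rose and 2 fell, no adipocyte gene was called by limma (0 at an unadjusted p under 0.05), and 2 fibroblast genes rose and 3 fell. The part of these cell types in the Cav1 and Cav2 values was not tested.

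**Figure D2:**
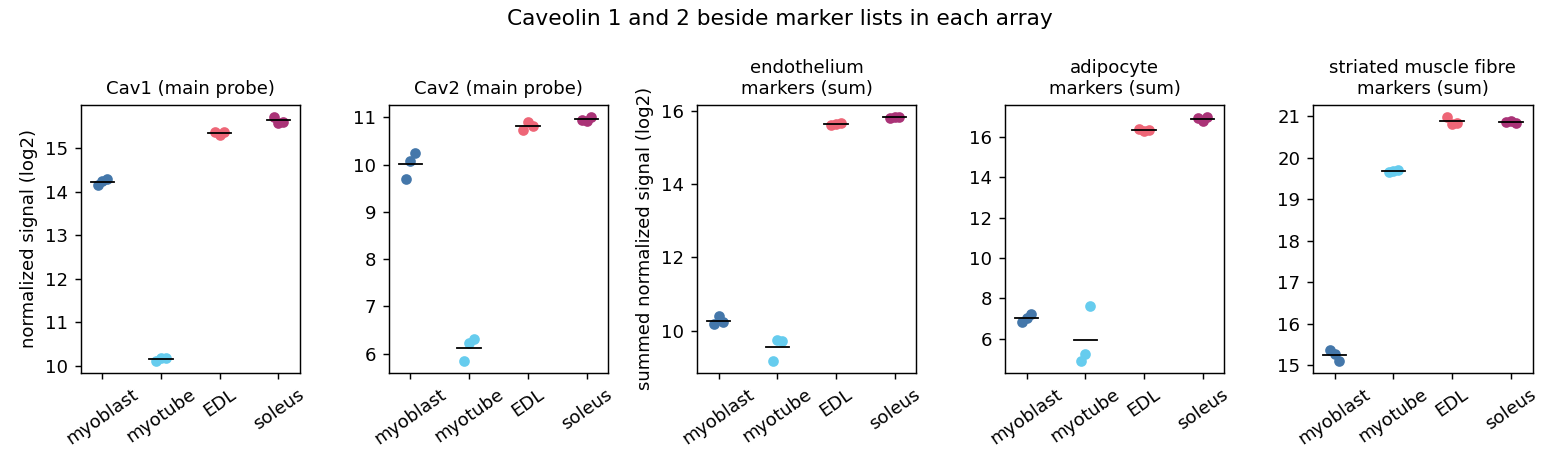
Normalized signal (log2) of the main Cav1 and Cav2 probes and summed signal (log2) of the endothelium, adipocyte and striated muscle fibre markers in every array of the 4 groups; lines are group means of 3 arrays. Cav1 and Cav2 drop in myotubes. The endothelium sum is also lower there, 9.17 to 9.75 against 10.19 to 10.4 in myoblasts, with 4 of its 10 genes well above background on no array of either culture group. Both genes and the endothelium and adipocyte sums are high in EDL and soleus.

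Annexins 1 and 2, which bind phospholipid when calcium enters a wounded cell, fell at each step from myoblasts to myotubes to muscle. The Anxa1 probe (A_51_P283590, chr19:20440781-20442294, mm8, minus strand) read 16, 16.24 and 16.4 in myoblasts, 13.97, 14.27 and 14.3 in myotubes, 11.3, 11.51 and 11.47 in EDL and 11.47, 11.49 and 11.72 in soleus. Myoblasts, myotubes and muscle were fully separated, and EDL and soleus overlapped. Myotubes were 4.09-fold below myoblasts (log2 difference -2.03, SE 0.13, adjusted p = 3.7e-07). EDL was 6.76-fold (-2.76, SE 0.13, adjusted p = 2.3e-08) and soleus 6.15-fold (-2.62, SE 0.13, adjusted p = 3.6e-08) below myotubes. Against myoblasts EDL was 27.7-fold and soleus 25.2-fold lower.

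Anxa2 had nearly the same differences on 2 probes. The main probe (A_52_P62037, chr9:69288867-69288926, mm8) read 15.91, 15.99 and 15.95 in myoblasts, 13.87, 13.94 and 13.9 in myotubes, 11.23, 11.12 and 11.12 in EDL and 11.39, 11.41 and 11.33 in soleus. Its log2 differences were -2.04 for myotubes against myoblasts (SE 0.07, adjusted p = 2.9e-09), -2.75 for EDL against myotubes (SE 0.07, adjusted p = 2.4e-10) and -2.52 for soleus against myotubes (SE 0.07, adjusted p = 4.8e-10). The second probe (A_51_P165342, chr9:69282203-69282977, mm8) gave -2.01, -3.11 and -2.94. Over both probes muscle was 23.7-fold to 34.8-fold below myoblasts. The fall of both annexins from myotubes to muscle was called on every probe with quantile normalization, spike-in scaling, normexp background correction and in the authors' deposited table. Genes of dividing cells moved the same way: the summed signal of 5 such genes was 16.03 to 16.28 in myoblasts, 10.33 to 10.59 in myotubes, 8.27 to 8.72 in EDL and 8.79 to 9.2 in soleus. Their part in the annexin values was not tested.

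**Figure D3:**
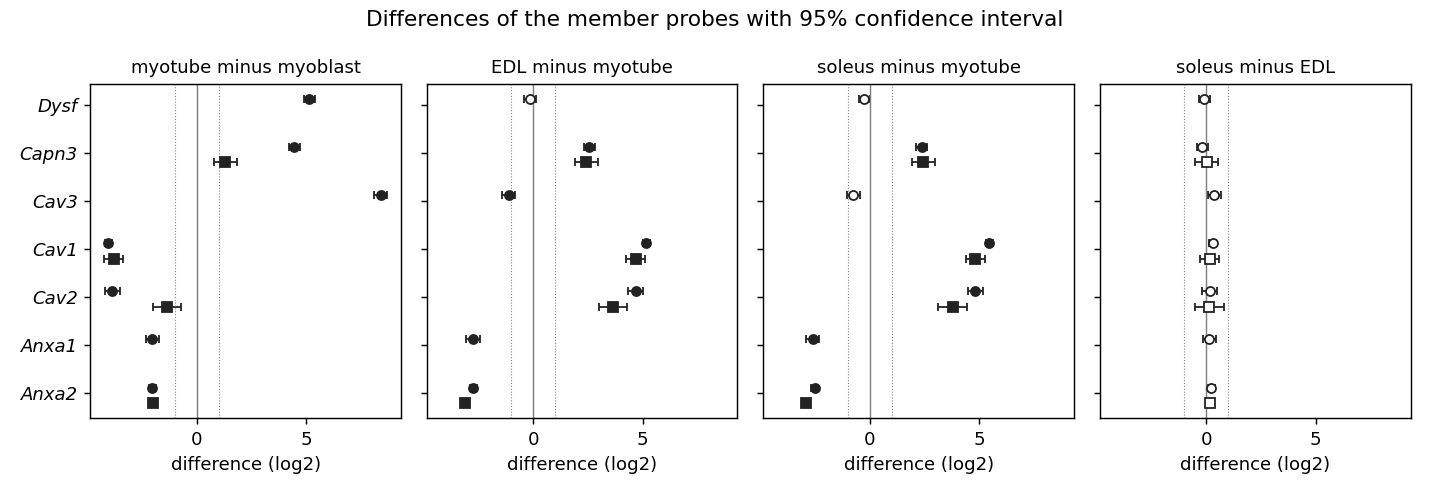
Log2 difference (horizontal axis) of each member probe in the 4 main comparisons with its 95% confidence interval; circles are main probes, squares second probes, filled symbols are called, and dotted lines mark a log2 difference of 1 in either direction. Between soleus and EDL no symbol is filled, and the 11 intervals together run from -0.51 to 0.8.

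The next comparisons set adult muscle against the cultured myotubes. In EDL against myotubes 10 of 11 member probes were called, 6 higher and 4 lower, where 46.4% of all tested probes were called, 26% higher and 20.4% lower. In soleus against myotubes 9 of 11 were called, 6 higher and 3 lower, where 44.3% were, 24.3% higher and 20% lower. These comparisons share the myotube arrays. The higher calls in both include the second probes of Capn3 and Cav2, which were kept only for their signal in muscle. Neither probe was called in these comparisons with normexp background correction. By gene, Cav1, Cav2 and Capn3 were higher in both muscles and Anxa1 and Anxa2 lower in both, while Cav3 was lower in EDL and Dysf was called in neither.

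The last main comparison asks whether the fast EDL and the slow soleus differ. None of the 11 member probes was called, where 9.45% of all tested probes were. Under limma 3 of the 11 had an unadjusted p under 0.05, and no member was called under any of the alternative settings. The main Cav1 probe was 0.29 higher in soleus (95% confidence interval 0.13 to 0.45, adjusted p = 0.013) and the main Anxa2 probe 0.22 higher (0.06 to 0.38, adjusted p = 0.04), both under the size threshold. Cav3 was 0.37 higher in soleus (0.08 to 0.66, adjusted p = 0.054), and its 3 within-slide differences were 0.3 to 0.43. For Dysf the difference was -0.09 (-0.35 to 0.16), for Capn3 -0.2 (-0.45 to 0.06), for Cav2 0.15 (-0.2 to 0.49) and for Anxa1 0.13 (-0.17 to 0.44). The arrays of EDL and soleus did not overlap for 5 of 11 member probes, and for 43.1% of all tested probes. A difference of the called size lay outside every one of the 11 intervals.

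Against myoblasts, 9 of 11 member probes were called in EDL, 6 higher and 3 lower, where 56.8% of all tested probes were called, 31.1% higher and 25.8% lower. In soleus 10 of 11 were called, 7 higher and 3 lower, where 55% of all tested probes were, 29.3% higher and 25.7% lower. By main probe, Dysf, Cav3, Capn3 and Cav1 were higher and Anxa1 and Anxa2 lower in both muscles, with the Cav1 call tied to the scaling as given above. The higher counts also include the second probes of Capn3 and Cav2, which were kept only for their signal in muscle. The second Cav2 probe was called at 2.28 in EDL and 2.42 in soleus, while the main Cav2 probe was called in neither. With spike-in scaling the second Cav2 probe read 0.92 and 0.86, not called. Neither second probe was called with normexp. Over all 6 comparisons 49 member differences were called, and all 49 had the same sign within each of the 3 slides. The groups did not overlap in any of the 49, so this outcome was fixed and adds no support.

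Other genes of the same machinery were read from 10 lists with 62 genes, of which 58 were measured; 15 rose and 12 fell from myoblasts to myotubes, 8 were higher and 19 lower in EDL than in myotubes, and 5 were higher and 20 lower in soleus. The called shares, 46.6%, 46.6% and 43.1%, stand beside 35.2%, 46.4% and 44.3% of all probes, so the totals in muscle, without regard to direction, are near the share over all probes. Of all probes 26% were higher and 20.4% lower in EDL than in myotubes, and 24.3% and 20% in soleus. The lists thus held more lower than higher calls in muscle, and all probes the reverse. Their median log2 difference was 0.21, -0.34 and -0.32 in the 3 comparisons, against 0.02, 0.14 and 0.09 over all probes.

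The cavins coat caveolae with the caveolins. Of 4 measured, Cavin4, the muscle-restricted member, rose 19.3-fold from myoblasts to myotubes (log2 difference 4.27, SE 0.12, adjusted p = 7.4e-10), as Cav3 did, and was lower again in EDL (-2.28) and soleus (-1.75). Cavin2 went the way of Cav1: it fell by 1.41 on the log2 scale in myotubes and was higher by 1.31 in EDL and by 1.74 in soleus, although the last 2 were not called with spike-in scaling (0.3 and 0.53). Cavin3 was called lower in myotubes at -1.8, but its other probe read 0.42. Cavin1, needed for all caveolae, was -0.85 in myotubes, under the size threshold, and -0.03 and 0.19 in EDL and soleus against myotubes.

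Of the 7 EHD and PACSIN genes, whose proteins shape the caveolar neck, 3 rose and 1 fell in myotubes, and 4 were lower and none higher in each muscle than in myotubes. Pacsin1 rose in myotubes; its 3 probes read log2 differences of 3.93 to 7.48, the highest from the main probe, which was above background on only 2 of 3 myoblast arrays. It was lower in both muscles, where its 3 probes read -3.71 to -3.06 in EDL and -3.6 to -2.79 in soleus against myotubes. Ehd2, an ATPase that holds caveolae at the surface, fell 5.01-fold in myotubes, and its muscle differences of 0.39 and 0.6 from myotubes were not called. Pacsin3 rose 8.1-fold on its brighter probe, while its other probe read -0.05. Ehd4 was 6.9-fold lower in EDL and 5.93-fold lower in soleus than in myotubes, Ehd1 5.72-fold lower in soleus, and Pacsin2 6.03-fold lower in EDL. Of the 2 flotillins, which organise membrane domains apart from caveolae, Flot1 rose 2.63-fold in myotubes, and the differences between muscle and myotubes were -0.52 to 0.7, called for neither gene with limma although both had an unadjusted p under 0.05 in each muscle; with spike-in scaling 2 were called in EDL and 1 in soleus.

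Of the 5 other ferlins listed, 2 were measured, and neither followed dysferlin at every step. Myoferlin (Myof), the close relative active in myoblast fusion, was 14.59 in myoblasts and 14.55 in myotubes, a difference of -0.04 that was not called, and was lower in EDL by 29-fold (log2 difference -4.86, SE 0.16, adjusted p = 1.5e-09) and in soleus by 25.2-fold. Dysf over the same steps rose, and then differed from myotubes by -0.15 and -0.25, not called. Otoferlin (Otof), known from hair cell synapses, was called higher at 1.19 in myotubes, which turned to -0.45 with normexp background correction and was not called with quantile normalization or in the authors' deposited table (0.92 in each) or with spike-in scaling (0.84), and was 8.86-fold higher in EDL and 4.82-fold in soleus than in myotubes.

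The annexins other than Anxa1 and Anxa2 did not share 1 direction in culture. Of 9 measured, 3 rose and 3 fell from myoblasts to myotubes, where Anxa5 fell 6.57-fold and Anxa11 rose 5.58-fold. Anxa9 was also called lower, at -3.07, from 2 of its 3 myoblast arrays because 1 spot was an outlier, and it was not called with normexp (-1.58, adjusted p = 0.14). In muscle none was higher than in myotubes and 5 were lower in EDL and 5 in soleus. Anxa8 was 83.8-fold lower in EDL and 133-fold lower in soleus, and Anxa3 16.2-fold and 15.4-fold lower. Anxa7 was 3.63-fold lower in EDL and Anxa6 3.04-fold lower in soleus. Between the muscles Anxa4 alone of the 9 was called, 2.66-fold higher in soleus (log2 difference 1.41, SE 0.13, adjusted p = 2.8e-05), and it was not called with spike-in scaling (1.21, adjusted p = 0.17) or normexp (1.04, adjusted p = 0.14).

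The 4 small S100 proteins that pair with annexins were all lower in both muscles than in myotubes. S100a10, the partner of annexin A2, fell 3.95-fold from myoblasts to myotubes (log2 difference -1.98, SE 0.12, adjusted p = 1.5e-07) and was a further 1.67 lower on the log2 scale in EDL and 1.49 lower in soleus. S100a11, the partner of annexin A1, fell 2.96-fold in myotubes and was 10.3-fold lower in EDL and 9.58-fold lower in soleus. S100a4 was 33.6-fold and 20.8-fold lower, and S100a6 5.79-fold and 5.12-fold lower, while their myotube differences of -0.37 and -0.31 from myoblasts were not called. The muscle counts, 4 of 4 lower, held in each scaling and background correction tried and in the authors' deposited table.

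**Figure D4:**
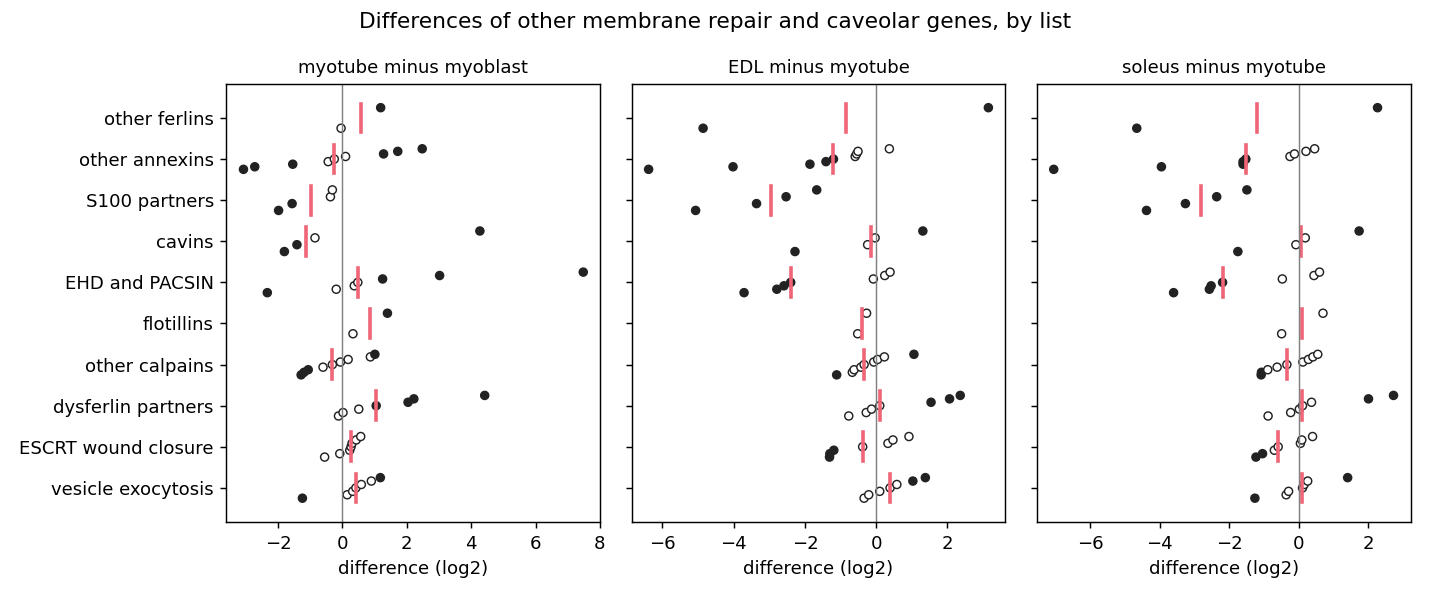
Log2 difference of every measured gene of the 10 lists (1 point per gene, filled where called) in 3 comparisons, with the list median as a vertical bar. The S100 partners lie below 0 throughout the muscle comparisons, and the cavins, the EHD and PACSIN genes and the ferlins hold genes of both directions between myoblasts and myotubes or between myotubes and muscle.

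Of the other calpains and calpastatin, the calpain inhibitor, 1 of 9 rose and 3 fell in myotubes, and in muscle the called differences were 1 higher and 1 lower in EDL and 2 lower in soleus. Capn2, a ubiquitous calpain, fell 2.42-fold in myotubes and was 2.16-fold lower in EDL, where Capn3 was higher. Other called differences were near the size threshold and several were lost under other settings. Capn6 was called at -1.19 in myotubes (-1.34, adjusted p = 0.098 with normexp) and Capn15 at -1.06 (-0.84 with normexp, -0.99 without myotube replicate 1). Capn6 was called at 1.06 in EDL, and not with quantile normalization or in the authors' deposited table (0.77 in each), spike-in scaling (0.06), normexp (0.82), or without myotube replicate 2 (0.94) or EDL replicate 1 (0.92). Capn10 was 1.07 lower in soleus than in myotubes. Capn1, the other ubiquitous calpain, was called at -1.02 in soleus against EDL and -1.08 against myotubes. Neither was called with normexp (-0.79 and -0.87) or without soleus replicate 2 (-0.92 and -0.99), nor the first without EDL replicate 1 (-0.93) or the second without myotube replicate 1 (-0.99).

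Among 7 partners of dysferlin and other limb-girdle membrane genes 4 rose and none fell in myotubes. Titin (Ttn), the giant sarcomere protein that anchors calpain 3, rose 21.4-fold and was a further 5.12-fold higher in EDL and 6.64-fold in soleus. Anoctamin 5 (Ano5), another muscular dystrophy gene, was called 4.66-fold higher in myotubes, 4.18-fold higher in EDL than in myotubes, and 3.23-fold lower in soleus than in EDL, but it was dim and its myotube and soleus differences turned to -0.77 and 0 with normexp. Its EDL call was lost with spike-in scaling (1.06, adjusted p = 0.097) and normexp (1.18, adjusted p = 0.4), and its soleus call with spike-in scaling (-1.9, adjusted p = 0.056). Ripor2 was called 4.1-fold higher in myotubes, where normexp gave -0.82, and was called higher in EDL (1.54) and soleus (2.01) than in myotubes; neither muscle call held with spike-in scaling (0.53 and 0.8) or normexp (0.93 and 1.65). Of the 7 ESCRT genes, whose proteins pinch off damaged membrane, none was called by limma in myotubes (4 had an unadjusted p under 0.05), and Vps4b (-1.31), Chmp3 (-1.3) and Pdcd6 (-1.19) were lower in EDL, with Vps4b and Chmp3 also lower in soleus (-1.23 and -1.04). The Chmp3 call in soleus was lost with normexp (-0.94), without myotube replicate 1 (-0.82) and without soleus replicate 2 (-0.96), and its other probe read -0.46 in EDL and -0.39 in soleus. Of the 7 genes of lysosome and vesicle exocytosis, Snap23 rose 2.27-fold in myotubes (not called with spike-in scaling, 0.83, adjusted p = 0.13) and Vamp7 was 2.57-fold lower in soleus than in EDL. Syt7 was called at -1.24 in myotubes and 1.03 in EDL with overlapping or dim arrays, and the probes of Vamp2 pointed both ways.

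The genes whose levels over the 12 arrays ran most like each member were found by Pearson correlation, as a description. The search covered those of the 18861 tested genes that had a reference gene symbol. The arrays fall into 4 groups, so the correlations mostly restate the group means. Dysf ran most like Klhl40 (r = 0.9986), Casz1 (0.9979) and Afap1l1 (0.9977). Cav3 ran most like Hsd11b1 (0.9984), Cfap52 (0.9982) and Nipal3 (0.9976), and Capn3 most like Pde4dip (0.9995), Xirp2 (0.9992) and Dnajc28 (0.9987). For Cav1 they were Cxcl12 (0.9986), Hrh1 (0.9965) and Bicc1 (0.996), and for Cav2 they were Aqp1 (0.9959), Cav1 itself (0.9958) and Pdxk (0.995). For Anxa1 they were Bcar3 (0.999), Pi4k2b (0.9989) and Snhg17 (0.9986), and for Anxa2 they were Adam8 (0.9993), Cks2 (0.9992) and Exosc6 (0.9991). Cav1 was thus among the 3 nearest genes of Cav2, while no other member was among the 3 nearest of any. This rank does not set the pair apart. Among the members, Anxa1 with Anxa2 and Cav1 with Cav2 both had r = 1 after rounding, and Dysf with Cav3 had 0.99. The lowest value was -0.98, for Anxa2 with Capn3.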

How the data were processed

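Per the file headers, Agilent Feature Extraction (version 10.5.1.1) wrote each array's file; the column used is a deposited intensity, the processed signal, with local background removed and spatial trend corrected inside the array. Its companion columns mark with 0 or 1 whether a spot exceeds background, is saturated or is an outlier. The authors' deposited table of intensity values has 41267 probes; its between-array normalization is not given in the sources used here, and it served as an alternative only.

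Outlier-flagged spots (68 to 140 per array) were left out, and no spot was saturated. Spots of a probe were averaged and scaled as stated in the results, and the kept probes were fitted with limma 3.58.1 in R 4.3.3 on all 12 arrays, with 4 group means, no block and two-sided tests (8 residual and 1.85 prior degrees of freedom). Of several kept probes of a gene, the brightest on average is called the main probe. The script was tested on simulated data. Coordinates are those of the array design (mm8).

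The labels give the same replicate numbers in each group, and the number is also the slide, of which the first had its scan on a different day. Deviations of same-numbered arrays correlated in every pair (r 0.21 to 0.62). A shared slide and a pairing of the samples cannot be told apart here, and arrays of different numbers were not compared.

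The rule for named genes was every member probe, and of each list up to 3 called genes with the largest difference per comparison, plus the 3 genes most correlated with each member. Genes named outside that rule (Cavin1, S100a10 in muscle, Myof, S100a4 and S100a6 in myotubes, Ehd2 in muscle) were chosen after their values were seen. The members and lists were chosen with earlier results of these data known. Alternatives were quantile normalization, scaling to 8 spike-in probes, normexp background correction (offset 50), no filter, 1 probe per gene, the authors' table, a replicate block, only the compared groups, within-slide differences and leaving out each array; applying them to the listed genes, and counting only probes above background in the groups compared, were added after seeing the data. The number of arrays limits the precision.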

Additional observations from a re-analysis of the deposited data

How the results depend on the processing

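The replicate block, which pairs arrays by number and slide, changed none of the 66 member differences and called 10246 probes from myoblasts to myotubes, against 10070 without it. No filter on dim probes, 1 probe per gene and fitting only the compared groups also changed no member difference; within a slide each group has 1 array, so no calls could be made. Of 66 member differences, 62 kept their direction and side of the threshold with quantile normalization, 57 with spike-in scaling, 54 with normexp background correction and 61 in the authors' table. Reversed with spike-in scaling were Cav1 against myoblasts (main probe -0.24 in EDL and -0.15 in soleus, second probe -0.53 in soleus). Reversed with normexp were the second Capn3 probe (-1.16 for myotubes and -0.19 for EDL against myoblasts), the second Cav2 probe (-0.32, EDL against myoblasts), Ano5 (-0.77 for myotubes against myoblasts, 0 for soleus against EDL), Ripor2 (-0.82) and Otof (-0.45), the last 2 for myotubes against myoblasts. The cause was not tested. Normexp called 4401, 6412, 6178, 511, 8116 and 6674 probes for the comparisons in the order myotubes against myoblasts, EDL against myotubes, soleus against myotubes, soleus against EDL, and EDL and soleus against myoblasts. Spike-in scaling called 1343 for soleus minus EDL and moved the share of higher calls, in that order, from 52.3%, 56%, 54.8%, 52.6%, 54.7% and 53.3% to 35.5%, 22%, 17.7%, 38.9%, 21.9% and 18.6%. With quantile normalization the share was 46% for EDL minus myotube. With 1 probe per gene, which leaves fewer probes to count, 6683 were called for myotube minus myoblast and 10452 for soleus minus myoblast, and 7, 6, 5 and 6 members for the first 3 and the last of these comparisons. Leaving out 1 array at a time gave 9867 to 10037, 12910 to 13541, 12404 to 12984, 2631 to 2697, 15882 to 16464 and 15377 to 15995 called probes, and 11, 10, 9, 0, 9 to 10 and 9 to 10 called member probes. Signal near background limits the second probes of Cav2 and Capn3.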
